A study of Homo sapiens with 8 samples.

Results

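The BCL2 family of apoptosis regulators was examined through 10 genes, taken from the table by their symbols. They comprise 3 pro-survival members (BCL2, BCL2L1 and MCL1), 2 effectors (BAX and BAK1) and 5 BH3-only members (BBC3, PMAIP1, BCL2L11, BID and BAD). All 10 were present among the 17504 genes of the deposited table, and all 10 passed the filter on low counts. Bulk RNA came from day 30 brain organoids of IMR90-4, an induced pluripotent stem cell line of human origin. The control group was 3 libraries of an IMR90-4 control line with wild-type genotype, and the other group was 3 libraries of an IMR90-4 line with FABP7 knockdown. Each group therefore rests on 1 derived line, and any other difference between both lines cannot be told apart from the knockdown. No label says whether replicates were separate cultures, so p-values speak only of the library-to-library spread, which can be technical. In bulk libraries fewer cells of a type and less RNA per cell cannot be told apart.

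The family sets the threshold at which a cell opens its outer mitochondrial membrane and commits to death. Pro-survival proteins hold the effectors BAX and BAK in check, BH3-only proteins carry death signals by binding pro-survival proteins or by activating the effectors, and activated effectors form pores that release cytochrome c. In the developing brain this pathway removes progenitors and young neurons.

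The promoters of the effectors and of both BH3-only genes called lower are shown first. BCL2L1, the other member called lower, is not printed. Each line gives 250 bases before and 50 bases after the start of a RefSeq transcript on GRCh38.p14, written 5′ to 3′ on the strand of the gene. Capitals mark the motifs searched on both strands, which were the E-box CACGTG and the FOXO core GTAAACA. None of the marked motifs overlapped another.
BAX, chr19:48954625-48954924, plus strand: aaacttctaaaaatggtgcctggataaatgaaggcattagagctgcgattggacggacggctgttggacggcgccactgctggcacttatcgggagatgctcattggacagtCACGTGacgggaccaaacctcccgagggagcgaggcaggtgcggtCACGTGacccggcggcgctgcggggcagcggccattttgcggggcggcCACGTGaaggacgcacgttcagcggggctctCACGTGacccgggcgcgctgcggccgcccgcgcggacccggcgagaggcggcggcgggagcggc
BAK1, chr6:33580227-33580526, minus strand: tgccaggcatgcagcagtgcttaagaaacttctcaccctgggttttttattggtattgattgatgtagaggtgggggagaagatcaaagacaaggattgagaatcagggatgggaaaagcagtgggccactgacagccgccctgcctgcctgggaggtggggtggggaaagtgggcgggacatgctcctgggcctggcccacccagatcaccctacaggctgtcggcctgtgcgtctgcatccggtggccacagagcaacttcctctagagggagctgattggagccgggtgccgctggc
BBC3, chr19:47232618-47232917, minus strand: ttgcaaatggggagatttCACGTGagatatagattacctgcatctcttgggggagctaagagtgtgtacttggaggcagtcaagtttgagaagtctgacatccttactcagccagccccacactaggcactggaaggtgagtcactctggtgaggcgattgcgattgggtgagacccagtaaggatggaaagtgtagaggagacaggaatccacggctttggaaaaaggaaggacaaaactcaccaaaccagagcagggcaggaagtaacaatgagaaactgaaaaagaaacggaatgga
BCL2L11, chr2:111120664-111120963, plus strand: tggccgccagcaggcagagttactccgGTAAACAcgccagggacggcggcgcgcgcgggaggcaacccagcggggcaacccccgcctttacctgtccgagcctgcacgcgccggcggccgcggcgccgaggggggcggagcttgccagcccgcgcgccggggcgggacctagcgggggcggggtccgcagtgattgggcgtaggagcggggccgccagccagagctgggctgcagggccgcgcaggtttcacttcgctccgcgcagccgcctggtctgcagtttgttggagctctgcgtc
The BAX window held 4 copies of CACGTG, which start 138, 93, 45 and 14 bases before the transcript start. At least 1 copy was present in a window of 11.6% of 14003 genes of the table with a promoter entry. A window with 2 or more was found for 171 genes (1.22%), and with 4 or more for 5 genes (0.0357%), BAX included. The cutoff of 4 is the count of BAX itself, so that share is a description only. The BAK1 window held neither motif and is shown in lower case throughout. The BBC3 window held 1 CACGTG, 232 bases before the start. The BCL2L11 window held the FOXO core 223 bases before the start, a motif found for 3.55% of genes. In the other members with an entry, CACGTG was found in windows of BID, which has 5 alternative starts, and none of these motifs in BCL2, BCL2L1, PMAIP1 or BAD. A match is a string of letters and not evidence of binding, and a missing match speaks only of the window searched. BCL2L1, which had no match, was also called lower. Neither motif was fixed beforehand, and whether a motif goes with the direction of a member was not tested.

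Library totals ran from 13424959 to 15675888 estimated counts. FABP7, the brain fatty acid binding protein of radial glia, had 3123, 2650 and 2850 counts in control and 14, 15 and 16 in knockdown, which matches the labels. In edgeR 51.7% of the 13468 tested genes had an adjusted p under 0.05, 26.4% higher and 25.3% lower in knockdown, so a call by itself is common in this comparison. Of 4 telencephalic markers 1 was called higher and 2 lower. Markers of neurons and of dividing cells moved with the groups. Marker sums are in deposited TPM (an abundance scaled by transcript length and library). On log2(TPM + 1) the median log2 fold change of all genes was -0.16, so a lower sum need not mean lower scaled counts. The summed level of 5 neural progenitor markers other than FABP7 was 1227 to 1290 TPM in control and 1095 to 1137 TPM in knockdown. Most of that sum was VIM, with a mean of 885 TPM in control and 730 TPM in knockdown. Its log2 fold change in counts was -0.10. In counts SOX2 (log2 fold change 0.58) and HES5 (0.69) were called higher and the other 3 lower. The summed level of 10 neuron markers was 3313 to 3404 TPM in control and 2167 to 2202 TPM in knockdown, with 9 called lower. The summed level of 10 markers of dividing cells was 647 to 682 TPM and 1177 to 1201 TPM, with all 10 called higher. The microglia and blood list summed to 20.8 to 23.5 TPM in control and 64.7 to 67.8 TPM in knockdown. Summed markers of the remaining other cells were at most 11.1 TPM, and some of them moved. The 5 melanocyte markers summed to 2.49 to 3.46 TPM in control and 10.2 to 11.1 TPM in knockdown, with 2 called higher, PMEL (log2 fold change 2.65) among them, and 1 lower. The 6 mesenchymal markers summed to 5.01 to 5.99 TPM and 9.77 to 10.6 TPM, with 2 called higher, LUM (log2 fold change 3.76) among them, and DCN at or near 0. The 5 oligodendrocyte lineage markers summed to 5.71 to 5.96 TPM and 4.05 to 5 TPM, with 2 called lower. The 4 endothelial and 3 choroid plexus markers were too low to test, with sums up to 0.66 and 0.65 TPM, and the 2 pluripotency markers, neither called, summed to 3.33 to 4.23 TPM and 2.51 to 3.73 TPM. Of the microglia and blood list, AIF1 alone rose, from 18.7, 19.0 and 21.6 TPM to 62.8, 64.6 and 66.3 TPM, while the leukocyte gene PTPRC was at or below 0.03 TPM in every library. The part of these shifts in the members' values below was not tested.

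In counts BAX fell and BAK1 rose, BCL2L1, BBC3 and BCL2L11 fell, and the remaining 5 members were not called. By class, 1 of 3 pro-survival, 1 of 2 effector and 2 of 5 BH3-only members were lower, and 1 effector was higher (edgeR quasi-likelihood test, adjusted over all tested genes). The 4 members lower compare with 25.3% of all tested genes, and the 1 higher with 26.4%, so the number of calls was near that of genes at large. The knockdown libraries lay wholly below control in CPM (counts scaled to library size with TMM factors) for 6 members and wholly above for 1, where 28.2% and 29.1% of tested genes did so, 57.3% in all. In limma on log2(TPM + 1), 8 members were called lower and 0 higher, where 45.9% and 11.9% of genes were. After TMM scaling of TPM, 5 were lower and 0 higher, where 24.8% and 24.9% of genes were. All members but BAK1 had a log2 fold change below 0. The median log2 fold change was -0.24 over pro-survival, -0.10 over effector and -0.26 over BH3-only members, and -0.25 over all 10, against -0.0052 over all tested genes. The effector median is the midpoint of opposite values and describes neither gene.

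**Figure D1:**
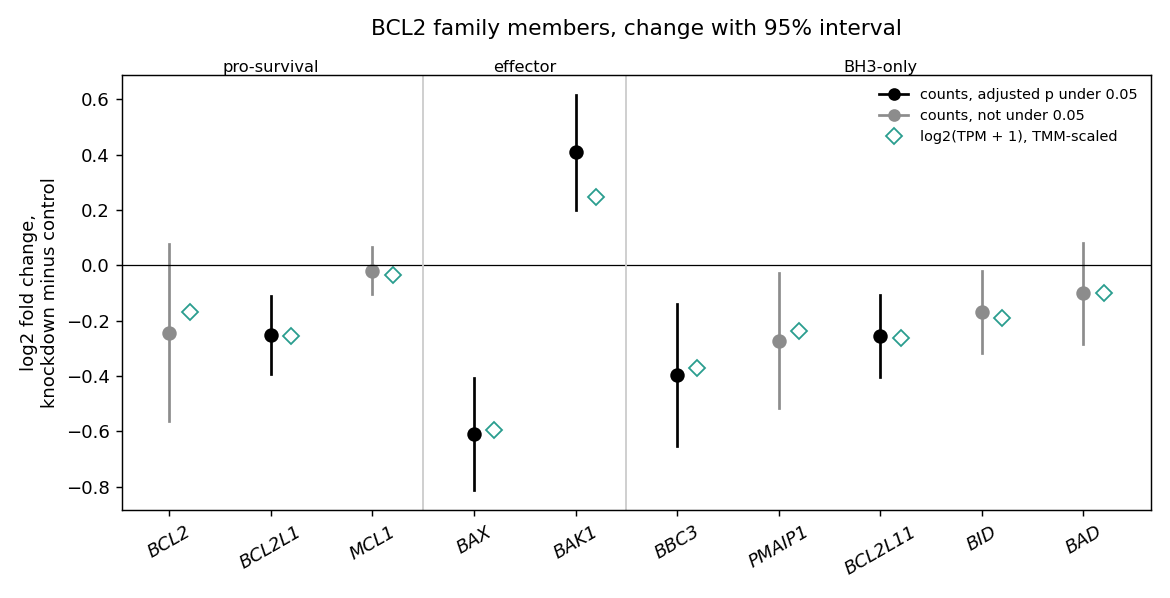
Log2 fold change of each member, knockdown minus control, from estimated counts of 3 libraries a group (circles with a 95% interval, black where called and grey where not) and from log2(TPM + 1) after TMM scaling (diamonds, no interval). BAX at -0.61 and BAK1 at 0.41 lie on opposite sides of 0, and the diamond of BAK1 lies lower, at 0.25.

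BAX, the effector that moves from the cytosol to mitochondria when activated, showed the largest difference of the 10 members in fold. Its estimated counts were 305, 209 and 238 in control and 163, 166 and 162 in knockdown. All 3 knockdown libraries were below the lowest control, and they lay closer together than the controls did. The level fell from 16.8 ± 2.10 to 11.04 ± 0.232 CPM (SD over n = 3), and the log2 fold change was -0.61 (standard error 0.10, 95% interval -0.81 to -0.41, edgeR adjusted p = 1.80e-05). BAX kept its call under all 16 alternative settings, with log2 fold changes from -0.76 to -0.50.

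BAK1, the effector that resides in the mitochondrial outer membrane, rose in counts. It had 207, 180 and 164 counts in control and 275, 225 and 230 in knockdown, with knockdown replicate 1 the highest and no overlap between groups after scaling. The level was 12.4 ± 1.12 CPM in control and 16.4 ± 2.03 CPM in knockdown, and the log2 fold change was 0.41 (standard error 0.10, 95% interval 0.20 to 0.62, edgeR adjusted p = 0.00167). The deposited TPM told less of a difference, at 11.7, 12.0 and 10.6 TPM in control against 14.2, 11.44 and 11.18 TPM in knockdown, groups that overlap. The call was lost on log2(TPM + 1), at 0.09 (limma adjusted p = 0.406), and at 0.25 (limma adjusted p = 0.0524) once TPM was scaled by TMM. The ratio of count to TPM, which tracks the transcript length the authors' quantification gave the gene, rose by 0.13 on the log2 scale for BAK1 relative to the typical gene. That shift was larger than for 97.7% of 10294 genes, while for BAX it was 0.001. Pseudogene copies of BAK1 exist in the genome, which makes its counts uncertain if reads were shared with them.

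Within each library BAX was the more abundant effector per transcript length, and its lead narrowed in knockdown. The ratio of BAX to BAK1 in TPM was 4.35, 3.55 and 4.42 in control and 1.83, 2.44 and 2.46 in knockdown. No knockdown library reached the lowest control ratio. BAX made up 81.3, 78.0 and 81.5% of effector TPM in control and 64.7, 70.9 and 71.1% in knockdown. These levels rest on a short implied transcript length for BAX, 0.169 of the median gene in control, against 0.51 for BAK1. With 3 libraries against 3 an exact permutation test cannot give a two-sided p under 0.1, so ratios are given without a test.

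**Figure D2:**
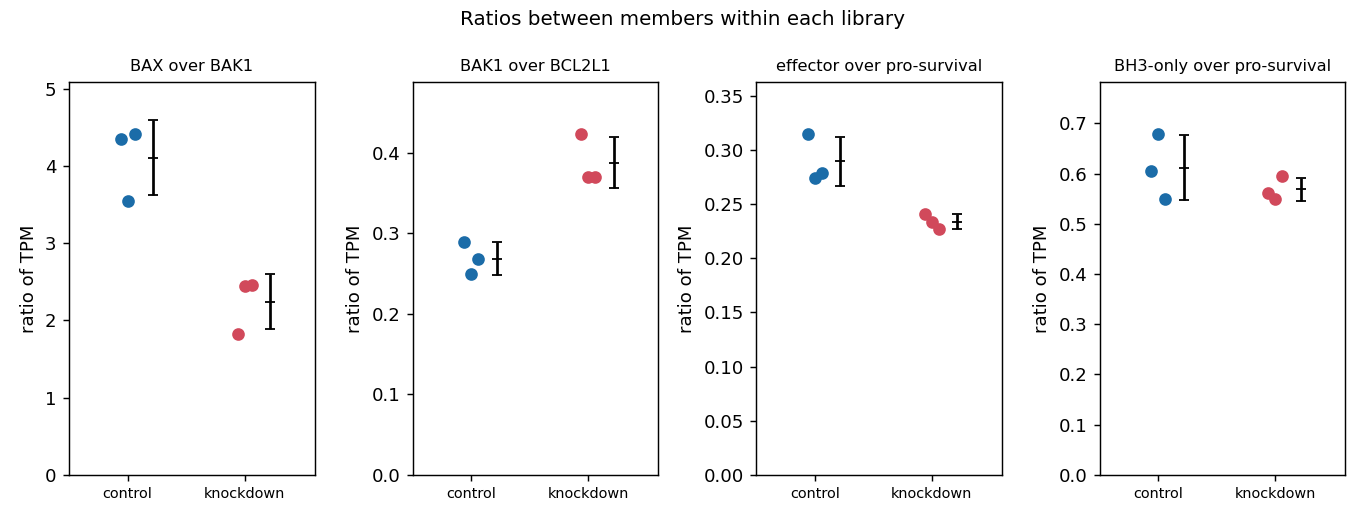
Ratios of TPM between members or summed classes within each library, with 3 points a group and the mean ± SD beside them. The ratio of BAX to BAK1 and of effectors to pro-survival members is lower in every knockdown library, BAK1 to BCL2L1 is higher, and BH3-only to pro-survival members overlaps.

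Among pro-survival members only BCL2L1 was called. BCL2L1, which encodes BCL-XL, the main guard of postmitotic neurons, had 967, 981 and 867 counts in control and 833, 772 and 759 in knockdown. After scaling, every knockdown library lay below every control, at 63.4 ± 6.70 CPM in control and 53.2 ± 3.28 CPM in knockdown. The log2 fold change was -0.25 (standard error 0.07, 95% interval -0.39 to -0.11, edgeR adjusted p = 0.00382), and the call held under all 16 alternatives. The counts are per gene, and the gene's long pro-survival and short pro-death splice forms were not resolved.

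MCL1, a short-lived protein that cortical progenitors are known to need, was by far the most abundant pro-survival transcript. It stood at 157, 149 and 165 TPM in control and at 133, 137 and 140 TPM in knockdown, which was 75.2 to 80.2% and 79.5 to 81.8% of pro-survival TPM. In TMM-scaled counts the groups overlapped, at 356 ± 16.8 and 351 ± 7.80 CPM, and the log2 fold change of -0.02 had a 95% interval of -0.10 to 0.07 (edgeR adjusted p = 0.727). Without control replicate 3 its sign turned, to 0.02. On log2(TPM + 1) MCL1 was called lower at -0.20 (limma adjusted p = 0.00395), a scale on which the median of all genes was -0.16.

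BCL2, the founding member of the family, was the scarcest member, at 1.24, 1.27 and 1.12 TPM in control and 0.72, 1.06 and 0.80 TPM in knockdown. Its 84, 72 and 74 counts in control and 56, 80 and 58 in knockdown overlapped. The log2 fold change of -0.24 had a 95% interval of -0.56 to 0.08 (edgeR adjusted p = 0.198). Leaving out knockdown replicate 2, the high one, moved it to -0.42 (adjusted p = 0.04), and leaving out knockdown replicate 1 or 3 moved it to -0.16 in either case (adjusted p = 0.491 and 0.477). The interval includes both 0 and the value of BCL2L1, so a difference of the size seen for BCL2L1 was neither shown nor excluded.

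All 5 BH3-only members had lower mean levels in knockdown, and 2 of them were called. BBC3, which encodes PUMA and binds every pro-survival member, had 194, 220 and 161 counts in control and 148, 154 and 135 in knockdown. The groups did not overlap in CPM, though control replicate 3 lay close to the knockdown libraries, at 10.9 CPM against 10.4 CPM for the highest of them. The level fell from 13.0 ± 2.63 to 9.83 ± 0.75 CPM, and the log2 fold change was -0.40 (standard error 0.12, edgeR adjusted p = 0.0103). The call was lost without control replicate 2, at -0.24 (adjusted p = 0.0871), and without knockdown replicate 3, at -0.33 (adjusted p = 0.0599).

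BCL2L11, which encodes BIM, a direct activator of the effectors that acts in neurons deprived of growth factors, had 443, 357 and 435 counts in control and 342, 345 and 345 in knockdown. All knockdown libraries were at 22.95 to 23.3 CPM and all controls at 25.9 to 29.4 CPM. The log2 fold change was -0.26 (standard error 0.07, 95% interval -0.40 to -0.11, edgeR adjusted p = 0.00472), and the call held under all 16 alternatives.

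PMAIP1 and BID were close to the threshold. PMAIP1, which encodes NOXA, the selective antagonist of MCL1, had 149, 137 and 187 counts in control and 124, 130 and 137 in knockdown. Its CPM values did not overlap between groups, and the log2 fold change of -0.27 had a 95% interval of -0.52 to -0.03 (edgeR adjusted p = 0.0565). It was called without control replicate 1 (adjusted p = 0.0198) or 2 (0.0409), while without control replicate 3, the high one, the log2 fold change was -0.13 (0.383). PMAIP1 was called under 6 of 15 alternatives in all. BID, which links death receptors to mitochondria when cut by caspase-8, had 390, 340 and 346 counts in control and 312, 316 and 327 in knockdown. Its groups did not overlap in CPM either, with a log2 fold change of -0.17 (95% interval -0.32 to -0.02, edgeR adjusted p = 0.051). BID was called under 7 of 16 alternatives and not called under 9. Its calls came without control replicate 3 (edgeR adjusted p = 0.0395) and also with all libraries kept. Examples are DESeq2 size factors (edgeR adjusted p = 0.0489) and the filter at 10 CPM (0.0244).

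BAD, which growth factor signalling inactivates through phosphorylation, was the most abundant BH3-only transcript per length, at 66.5, 77.6 and 58.6 TPM in control and 54.0, 52.5 and 60.9 TPM in knockdown. That rank rests on a short implied transcript length, 0.2 of the median gene in control, against 0.536 for BID and 1.4 for BCL2L11. The groups overlapped, and the log2 fold change of -0.10 had a 95% interval of -0.29 to 0.08 (edgeR adjusted p = 0.353). Without control replicate 3, the lowest control, it was -0.20 and called (adjusted p = 0.0281), while without control replicate 2, the highest, it was -0.01 (0.925). Leaving out knockdown replicate 2 gave -0.06 (adjusted p = 0.681) and knockdown replicate 3 gave -0.15 (0.231). BAD overlaps GPR137 on the genome and its counts are uncertain for that reason, as strand use is not given.

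**Figure D3:**
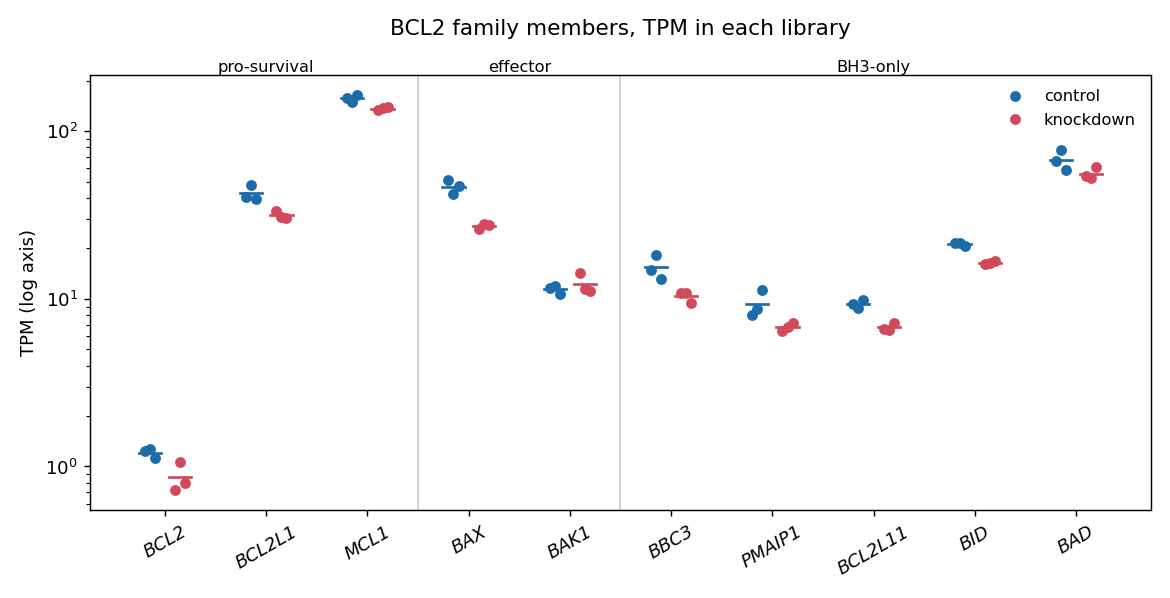
Deposited TPM of each member in every library on a log axis, with a bar at the mean of 3 libraries. MCL1 is the highest member in all 6 libraries and BCL2 the lowest, and BAX shows the widest gap between groups.

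In order of mean TPM in control the members ran MCL1 (157), BAD (67.6), BAX (46.8), BCL2L1 (42.7), BID (21.2), BBC3 (15.4), BAK1 (11.4), BCL2L11 (9.34), PMAIP1 (9.30) and BCL2 (1.21). BAX and BCL2L1 overlapped in control, as did BCL2L11 and PMAIP1. In knockdown BCL2L1 (31.6) stood above BAX (27.2), with no library in common, and BAK1 (12.3) above BBC3 (10.4). Summed effector TPM per library was 62.5, 54.5 and 57.5 in control and 40.3, 39.3 and 38.7 in knockdown. Summed pro-survival TPM was 198, 199 and 206 in control and 168, 169 and 171 in knockdown. These sums are in TPM without TMM scaling, and on log2(TPM + 1) the median of all genes was -0.16. MCL1, the largest part of the pro-survival sum, overlapped between groups in scaled counts, at -0.02. A lower sum is therefore not by itself a fall beyond that of genes at large. The effector sum was 0.315, 0.274 and 0.279 of the pro-survival sum in control and 0.241, 0.233 and 0.227 in knockdown, so it was the smaller share in every knockdown library. The BH3-only sum was 0.606, 0.68 and 0.55 of the pro-survival sum in control and 0.562, 0.55 and 0.595 in knockdown, and these overlapped. The ratio of BAK1 to BCL2L1 was 0.289, 0.249 and 0.268 in control and 0.424, 0.37 and 0.37 in knockdown. RNA levels do not give the proteins, which for MCL1, PMAIP1 and BCL2L11 are strongly set by degradation.

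Genes around most members showed little shift as a group. The median log2 fold change of tested genes that start within 5 Mb lay between -0.04 and 0.06 for BCL2L1, MCL1, BAX, BAK1, BBC3, BCL2L11, BID and BAD. BCL2 (-0.24) and PMAIP1 (-0.27), both on chromosome 18, had 16 and 22 such neighbours with medians of -0.22 and -0.19. BCL2 and PMAIP1 lie within 5 Mb of each other, so each counts as a neighbour of the other. Their windows overlap, and these medians are not separate observations. BCL2L1 lies in the part of chromosome 20 that cultured pluripotent stem cells often gain. Of 17 genes listed from there 13 were tested, 2 higher and 3 lower, with a median of -0.09. Over all tested genes 26.4% were higher and 25.3% lower. The mitotic spindle gene TPX2 rose by 0.95 and the peptidase gene HM13 by 0.36, while XKR7 (-0.38), the kinesin KIF3B (-0.27) and the chromatin gene ASXL1 (-0.12) fell. The call of ASXL1 was lost without control replicate 2 (adjusted p = 0.0681) and without knockdown replicate 1 (0.0864) or 3 (0.145).

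The wider family moved in both directions. Of 13 further family genes, BCL2A1 was absent from the table, and BCL2L10 and BCL2L14 were too low to test. Among the 10 tested 4 were higher and 1 lower, where 26.4% and 25.3% of all tested genes were. BOK, an effector-like relative that does not need BH3-only proteins, fell from 47, 41 and 47 counts to 23, 24 and 17, and the log2 fold change was -1.07 (standard error 0.21, edgeR adjusted p = 1.87e-04). Its groups were far apart relative to their spread, at 3.03 ± 0.123 and 1.44 ± 0.269 CPM. HRK, a BH3-only gene of neurons, rose from 58, 54 and 47 counts to 85, 75 and 87 (0.64, edgeR adjusted p = 0.00105). BCL2L12 (0.60), which overlaps IRF3, BCL2L13 (0.23) and BNIP3L (0.21), both receptors of mitochondrial autophagy, were also called higher. The calls of BCL2L13 (0.06, limma adjusted p = 0.444) and BNIP3L (0.02, limma adjusted p = 0.666) were lost on log2(TPM + 1). BCL2L2, which encodes the pro-survival BCL-W, had a log2 fold change of 0.09, the BH3-only genes BMF and BIK of -0.15 and -0.31, BCL2L15 of 0.12 and BNIP3 of 0.02, none of them called. BCL2L2 (15.2, 15.4 and 15.7 TPM in control) stood above BCL2 in deposited TPM in these organoids. BCL2L2 overlaps BCL2L2-PABPN1 and BNIP3 overlaps PPP2R2D, so their values are uncertain to that extent.

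Downstream of the effectors, CYCS and DIABLO rose while APAF1 and CASP9 fell. Of 10 genes of the mitochondrial gate and apoptosome 3 were higher and 3 lower, with a median of -0.01. Of all tested genes 26.4% were higher and 25.3% lower. CYCS, the cytochrome c gene, rose from 449 ± 8.58 to 664 ± 15.2 CPM (0.57 ± 0.04 SE, edgeR adjusted p = 2.62e-11). DIABLO, which relieves caspase inhibition, and the channel gene VDAC2 rose by 0.22 and 0.15, and its relative VDAC3 fell by 0.37. On log2(TPM + 1) DIABLO was at 0.06 (limma adjusted p = 0.196) and VDAC2 at -0.02, and with library totals alone VDAC2 was not called (0.08, edgeR adjusted p = 0.0743). The scaffold gene APAF1 (-0.24) and the initiator CASP9 (-0.34), picked with their values known, were the other members lower. CASP9 lost its call without control replicate 2 (adjusted p = 0.0574).

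Among 5 executioner and substrate genes 1 was higher and 3 lower, with a median of -0.38. The shares over all tested genes were 26.4% higher and 25.3% lower. CASP6, an executioner caspase, fell by 0.53. PARP1, a DNA repair enzyme that executioner caspases cut, rose by 0.12. PARP1 lost its call without control replicate 1 (adjusted p = 0.115) or knockdown replicate 1 (0.11) or 2 (0.0588), and it was at -0.07 on log2(TPM + 1). DFFB, the nuclease that cuts DNA in dying cells, and its inhibitor DFFA fell by 0.67 and 0.38. CASP9, DFFA and DFFB lie on the short arm of chromosome 1, where tested genes within 5 Mb of them had medians of -0.52, -0.53 and -0.51.

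**Figure D4:**
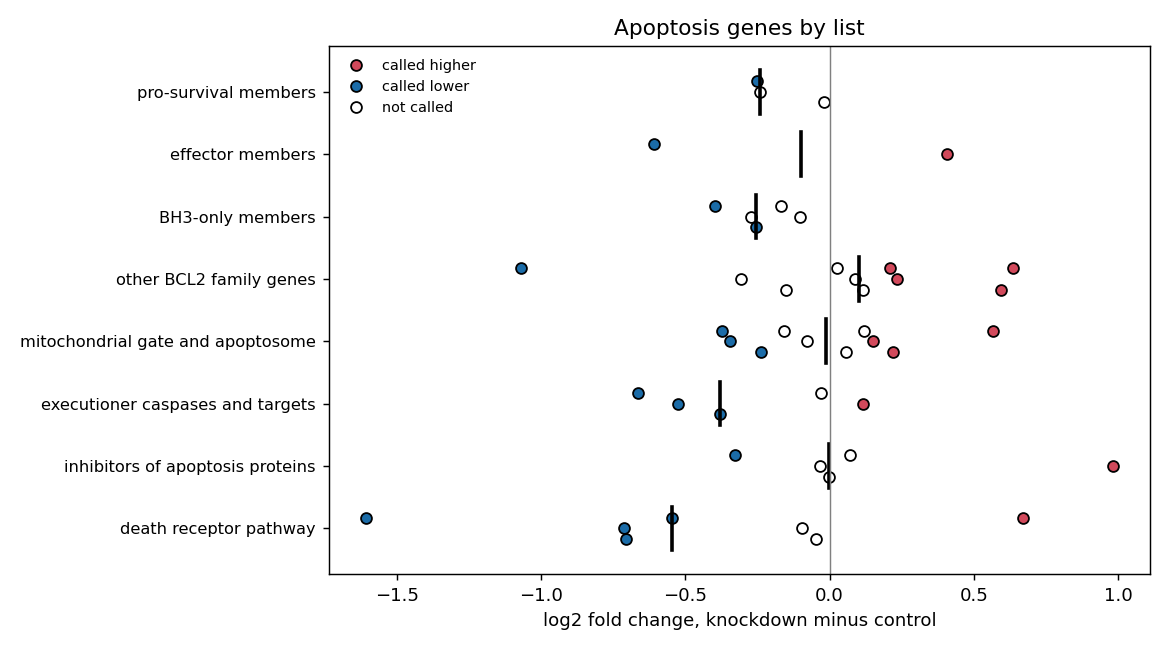
Log2 fold change, knockdown minus control, of every tested gene in each list, red where called higher, blue where called lower and open where not called, with a bar at the list's median. FAS of the death receptor pathway, at -1.61, lies furthest to the left and BIRC5, at 0.98, furthest to the right.

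More death receptor genes were lower than higher, and most tested inhibitors of apoptosis were not called. Of 11 death receptor pathway genes 7 were tested, 4 lower and 1 higher, with a median of -0.55. Among all tested genes 25.3% were lower and 26.4% higher. TNFRSF10B, the TRAIL receptor known as DR5, fell from 144 ± 2.94 to 88.3 ± 3.06 CPM (-0.71 ± 0.05 SE, edgeR adjusted p = 1.10e-11). The decoy receptor TNFRSF10D (-0.71), the kinase RIPK1 (-0.55) and FAS (-1.61, at 26, 15 and 27 against 6, 6 and 10 counts) fell, and the TNF receptor TNFRSF1A rose by 0.67. CASP8, which cuts BID, was too low to test. Of 5 tested inhibitors of apoptosis BIRC5, which encodes survivin and is itself a mitotic gene, rose from 31.1 ± 0.771 to 61.6 ± 0.518 CPM (0.98 ± 0.06 SE), and NAIP, which has near-identical partial copies, fell by 0.33. The other 3 were not called.

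Regulators of the members moved with no single direction. Of 12 tested transcriptional regulators 4 were higher and 5 lower, where 26.4% and 25.3% of all tested genes were. DDIT3, a stress factor that can induce BCL2L11, rose by 0.84 and its inducer ATF4 by 0.34, JUN fell by 0.31, and FOXO3, an activator of BCL2L11 and BBC3, fell by 0.27. The forkhead factor gene FOXO1 rose by 0.87. MDM2 (-0.28), MDM4 (-0.26) and STAT3 (-0.18) were the other regulators lower, and MYCN (0.21) was the other one higher. MDM4 lies on chromosome 1, where genes within 5 Mb had a median of -0.51. FOXO1, MDM2, MDM4, STAT3 and MYCN were picked with their values known, and MYCN lost its call without control replicate 1 (adjusted p = 0.051) or knockdown replicate 3 (0.0868). Of 8 tested genes for turnover of member proteins 2 were higher and 4 lower, beside 26.4% and 25.3% of all tested genes. The ubiquitin ligase genes BTRC and FBXW7, whose proteins target BCL2L11 and MCL1, fell by 0.42 and 0.21, the cochaperone BAG1 fell by 0.18, and USP9X, the deubiquitinase of MCL1, rose by 0.14. MARCHF5 (-0.13) and BAG3 (0.23) completed these calls and were picked with their values known. MARCHF5 lost its call without control replicate 1 (adjusted p = 0.0685) or knockdown replicate 1 (0.143) or 2 (0.115). The call of BAG3 was lost with any 1 library left out except control replicate 2 (adjusted p from 0.0512 to 0.166). USP9X was at -0.04 on log2(TPM + 1), and BAG1 lost its call without knockdown replicate 2 (adjusted p = 0.0546) or 3 (0.0539). Several of these genes overlap another gene, namely FAS, TNFRSF10B, MDM2, DDIT3, APAF1, CASP6, DIABLO, MARCHF5 and HM13, so their counts are uncertain to that extent.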

How the data were processed

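Bulk RNA sequencing of 3 control and 3 FABP7 knockdown libraries was analysed from 1 deposited table. Per the labels, 2 single-cell libraries also exist, which were not analysed here. Per the file headers the deposited table holds read counts per gene, beside TPM, FPKM and normalized read counts. Per the submitters' processing notes the build was hg38. Aligner, counter, annotation, strand use and knockdown method: not given in the sources used here. Of the deposited read counts, called estimated counts here, 12.6 to 14.9% per library were not whole, and they were rounded. FPKM, the normalized signal and the authors' group means entered no test.

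edgeR 4.0.16 under R 4.3.3 tested the rounded counts (TMM, filterByExpr with minimum count 10 and total 15, robust quasi-likelihood F-test, Benjamini-Hochberg over all tested genes, threshold 0.05). Standard errors and 95% intervals come from that fit. Alternatives were other scalings, filters and tests (limma 3.58.1, DESeq2 1.42.0), TPM in place of counts, a replicate block and each library left out. Levels between genes were compared in deposited TPM only. Promoters were from RefSeq on GRCh38.p14. Of the 10 members 9 had an entry, and MCL1 is named only. Protein sequences were not used here. Some listed genes, a gene list and a motif are not reported here and enter no list count.

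The members and lists were chosen with earlier results of these data known. Named genes were the members, further family genes that were tested, up to 4 genes of each list by smallest p all changed genes of lists where 5 or fewer changed, and FABP7. Cell type markers are given as list sums. Genes said to be picked with their values known, and the single markers named beside those sums, fall outside this rule. The ratio of count to TPM was examined after the data were seen, and the E-box and FOXO core were not among the motifs fixed beforehand.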

Additional observations from a re-analysis of the deposited data

How the results depend on the processing

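BAX, BCL2L1 and BCL2L11 were called lower under all 16 alternatives. On log2(TPM + 1), where the median of all genes was -0.16, 0 members were higher and 8 lower, with 1475 genes higher and 5694 lower overall. After TMM scaling of TPM, added after the data were seen, 0 members were higher. Of called genes 51.1% were higher, against 37.7% with library totals alone and 20.6% on log2(TPM + 1). The cause of these differences was not tested. The pro-survival median was -0.31 with library totals, -0.17 on scaled TPM and -0.26 to -0.16 with a library left out. The effector median was -0.33 on log2(TPM + 1), -0.17 with library totals, -0.18 on scaled TPM and -0.15 to -0.03 with a library left out. The BH3-only median was -0.32 with library totals, -0.39 on log2(TPM + 1) and -0.26 to -0.20 with a library left out.

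Signs turned on log2(TPM + 1) for BCL2L2 (-0.0918), PARP1 (-0.0681), BNIP3 (-0.1504), VDAC2 (-0.0233) and USP9X (-0.0428). BNIP3 was also at -0.0441 with library totals and -0.0025 with upper-quartile factors. With a library left out, MCL1 ranged from -0.0571 to 0.0186, BCL2L15 from -0.0068 to 0.2507 and BNIP3 from -0.0312 to 0.0645. Same-numbered libraries correlated at 0.172, 0.0509 and 0.119 in their deviations from group means, and differently numbered ones at -0.242 to 0.111. The labels state no pairing, so the numbers were not taken as pairs in the main fit. With the replicate block 3646 genes were higher and 3468 lower, and PMAIP1 gained a call (adjusted p = 0.0425). Depth limits BCL2 in particular, the member with the fewest counts, at 56 to 84 in a library.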
